A study of Mus musculus with 2 samples.

Results

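Among the mouse bone marrow cells profiled here, the neutrophils of the secondary granule stage were selected on 4 measured limits per cell. A cell was kept when it had at least 10 *Ltf* UMIs per 10000 of its UMIs, fewer than 3 *Mmp8* UMIs, fewer than 100 *Retnlg* UMIs per 10000 and fewer than 3 *Cd79a* UMIs. A UMI is a unique molecular identifier, so it counts 1 captured transcript molecule rather than a read. The rule took 481 of the 2478 deposited cells, 235 of 1309 in the Col1a1fspKO library and 246 of 1169 in the WT library, and they are called the Ltf-high cells here. Because *Ltf*, *Mmp8*, *Retnlg* and *Cd79a* chose the cells, so that membership was set by measured values, and every other gene was counted in those same cells, the differences between gates below are descriptions without a test.

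Both libraries came from mice that carried *Col1a1*flox/flox, a *Col1a1* gene flanked by loxP sites on both alleles. In Col1a1fspKO (Fsp1-Cre;Col1a1flox/flox) mice the Fsp1 (*S100a4*) promoter drove Cre, so that the deletion was directed to cells in which this promoter is or was active. WT mice were Cre-negative;Col1a1flox/flox littermates, and all mice were 2 months old and untreated. Marrow of femur and tibia from 2 mice per genotype was pooled into 1 library, live cells were sorted without selection for a lineage, and 3′ ends were counted with 10x Single Cell 3′ v2 chemistry. With 1 library per genotype, the 2 mice of a pool could not be separated and there was no replicate, so no p-value is given and the 95% intervals cover counting error only. Genotype and library cannot be told apart in any difference between Col1a1fspKO and WT.

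Neutrophils form in the marrow from dividing progenitors and store their proteins in granules that are filled in sequence. Primary granules hold myeloperoxidase and the serine proteases, secondary granules hold lactoferrin, lipocalin and the cathelicidin precursor, and tertiary granules hold gelatinase, each made for a limited stretch of maturation. Division is known to stop around the time that secondary granule proteins are made, and C/EBP-epsilon is a transcription factor needed for that granule programme. The gene names follow this scheme: *Ltf* encodes lactoferrin, which binds iron; *Lcn2* encodes lipocalin 2, which binds bacterial siderophores; *Camp* encodes the cathelicidin antimicrobial peptide; *Ngp* encodes neutrophilic granule protein; *Mmp8* and *Mmp9* encode neutrophil collagenase and gelatinase.

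The promoter windows of 4 of the marker genes are shown because these genes were abundant together in the same cells, and 3 of the 4, *Ltf*, *Camp* and *Ngp*, lie on chromosome 9. Each is the stretch of 250 bases before the RefSeq start of the gene on GRCm38.p6, written 5′ to 3′ on the gene's own strand. Capitals mark matches on either strand to TTNNGNAA, a C/EBP-like pattern, or to GAGGAA, a PU.1-like pattern. The windows are chr9:111019042-111019291 on the plus strand for *Ltf*, chr9:109849457-109849706 on the minus strand for *Camp*, chr9:110419558-110419807 on the plus strand for *Ngp* and chr2:32387740-32387989 on the minus strand for *Lcn2*.
Ltf: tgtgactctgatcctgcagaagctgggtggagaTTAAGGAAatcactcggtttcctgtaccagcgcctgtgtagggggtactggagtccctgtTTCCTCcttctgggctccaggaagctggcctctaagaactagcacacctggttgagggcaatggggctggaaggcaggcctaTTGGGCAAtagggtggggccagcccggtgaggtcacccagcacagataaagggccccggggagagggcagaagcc
Camp: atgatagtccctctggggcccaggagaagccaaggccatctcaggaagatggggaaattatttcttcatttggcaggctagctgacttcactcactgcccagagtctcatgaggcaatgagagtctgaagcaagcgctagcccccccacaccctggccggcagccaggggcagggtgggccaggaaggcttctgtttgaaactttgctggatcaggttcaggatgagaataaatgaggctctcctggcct
Ngp: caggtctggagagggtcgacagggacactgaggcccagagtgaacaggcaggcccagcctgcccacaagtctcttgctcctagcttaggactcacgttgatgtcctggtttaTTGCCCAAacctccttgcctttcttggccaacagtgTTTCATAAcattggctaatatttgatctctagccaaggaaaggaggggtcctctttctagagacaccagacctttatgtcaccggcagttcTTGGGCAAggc
Lcn2: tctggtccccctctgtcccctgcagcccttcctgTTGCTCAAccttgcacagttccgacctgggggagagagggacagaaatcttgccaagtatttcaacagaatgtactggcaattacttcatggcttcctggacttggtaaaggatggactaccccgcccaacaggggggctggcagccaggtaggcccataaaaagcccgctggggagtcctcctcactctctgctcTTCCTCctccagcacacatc
The *Ltf* window held 2 matches to the C/EBP-like pattern and 1 to the PU.1-like pattern. The *Ngp* window held 3 C/EBP-like matches and the *Lcn2* window held 1 of each, while *Camp* had neither set of letters in its window. Of 32851 RefSeq promoter windows of the same length, 36.8% held the C/EBP-like letters and 23.3% the PU.1-like letters, the patterns did not overlap in the printed windows, and a match is only a description of the letters. No window for *Orm1* is printed.

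The files held 8647722 UMIs in the Col1a1fspKO library and 8624469 in WT, with 12760 and 12763 genes listed. The Ltf-high cells had a median of 5113 UMIs in Col1a1fspKO and 5987 in WT. Their median number of genes was 1073 and 1312, or 683 and 706.5 once each cell was thinned to 2500 UMIs. The mitochondrial share had a median of 0.753% and 0.996% and a maximum of 4.05% and 3.48%. *Col1a1*, the targeted gene, had 2 UMIs in the Col1a1fspKO Ltf-high cells and 0 in WT, and *S100a4* had 62 and 59, so the deletion could not be checked in these cells, and a 3′ tag does not report on a deleted part elsewhere in the gene. The libraries shared 2 cell barcodes, 1 of them on an Ltf-high cell.

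The Ltf-high cells carried the transcripts of the label in both libraries. UMIs of a gene per 1000000 UMIs summed over all cells of a gate (CPM) are used below for the Ltf-high cells and for the gates around them, which were drawn in the same way: cells with at least 100 *Retnlg* UMIs per 10000 (Retnlg gate), the remaining cells with at least 3 *Mmp8* UMIs (Mmp8 gate), and, among cells below the *Ltf* limit, those with at least 10 *Fcnb* UMIs per 10000 (Fcnb gate) or at least 10 *Mpo* UMIs per 10000 (Mpo gate). *Lcn2* had 10638 CPM in the Col1a1fspKO Ltf-high cells and 10900 CPM in WT, above each other gate, whose values ran from 74.5 to 9074 CPM in Col1a1fspKO and from 78.6 to 9254 CPM in WT. *Camp* had 60562 and 59974 CPM, against 40410 and 40360 CPM in the Mmp8 gate and 39689 and 29745 CPM in the Fcnb gate. *Ngp* had 46409 and 49786 CPM, against 34876 and 31829 CPM in the Mmp8 gate.

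Of the 6 markers *Orm1*, which encodes the acute phase protein orosomucoid 1, had the highest ratio of Ltf-high cells over the Mmp8 gate in both libraries. Its level was 279.6 CPM in Col1a1fspKO and 273.4 CPM in WT, compared with 49.4 and 89.2 CPM in the Mmp8 gate and 14.7 and 9.16 CPM in the Retnlg gate. *Ltf* itself, which the rule used, had 3792 and 4210 CPM in the Ltf-high cells and 4927 and 5153 CPM in the Mmp8 gate. *Anxa1*, which encodes annexin A1, a regulator of inflammation, had 1827 and 2044 CPM, close to the 2185 and 2066 CPM of the Mmp8 gate. With all cells, *Lcn2*, *Camp*, *Ngp* and *Orm1* were at their highest CPM of the 5 gates in the Ltf-high cells of both libraries, and *Ltf* and *Anxa1* were not. Without cells that carried transcripts of another cell type, called mixed cells and defined further on, *Lcn2* no longer set the Ltf-high cells apart from the Mmp8 gate, with 11365 against 11458 CPM in Col1a1fspKO and 11179 against 12195 CPM in WT. The ratio over the Mmp8 gate was then 1.24 and 1.14 for *Camp*, 1.09 and 1.20 for *Ngp* and 4.63 and 2.34 for *Orm1*. The counts hold no time, so the order of the gates is the order of known granule biology and was not measured.

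**Figure D1:**
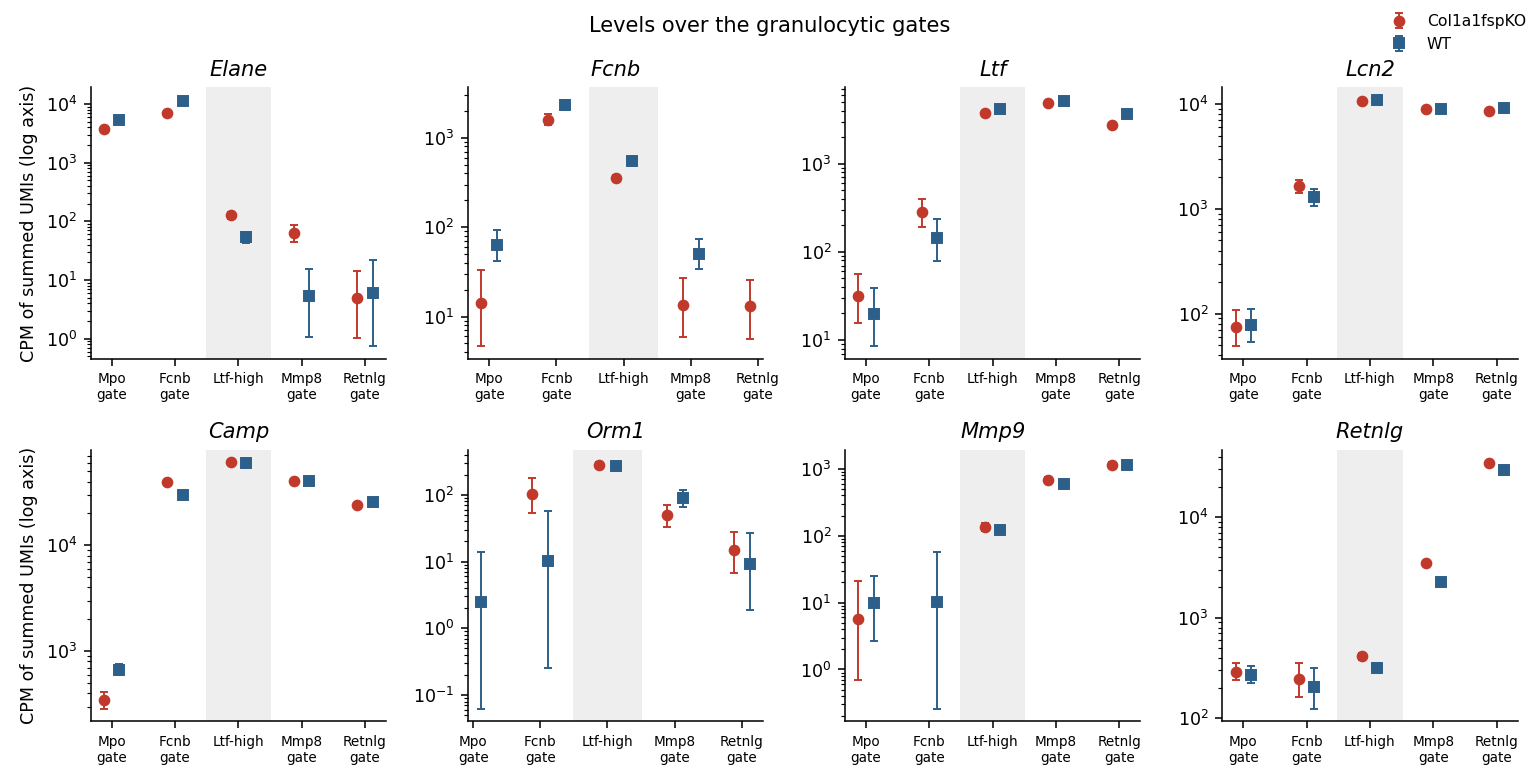
CPM of 8 genes (log axis) across the 5 gates for the Col1a1fspKO and WT libraries, with exact Poisson 95% intervals as bars and the Ltf-high cells in the grey band; points at 0 are not drawn. *Elane* was at 128 and 53.5 CPM in the Ltf-high cells against 3729 and 5249 CPM in the Mpo gate, *Orm1* was highest in the grey band, and *Mmp9* and *Retnlg* were highest in the Retnlg gate.

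Genes of the earlier and later granules gave the position of the Ltf-high cells between their neighbours. *Elane*, which encodes neutrophil elastase of the primary granule, had 3729 and 5249 CPM in the Mpo gate, 7114 and 11203 CPM in the Fcnb gate and 128 and 53.5 CPM in the Ltf-high cells of Col1a1fspKO and WT. Of its UMIs in the Ltf-high cells, 61.4% and 43.3% were in 1 cell of the library. *Fcnb*, which encodes the lectin ficolin B of immature myeloid cells, had 1594 and 2348 CPM in the Fcnb gate, which was drawn on it, 354 and 547 CPM in the Ltf-high cells and 13.6 and 50.7 CPM in the Mmp8 gate. *Mmp9* had 135 and 122 CPM in the Ltf-high cells, 678 and 596 CPM in the Mmp8 gate and 1158 and 1136 CPM in the Retnlg gate. *Cebpe*, which encodes C/EBP-epsilon, had 889.97 and 967 CPM in the Ltf-high cells, compared with 404 and 469 CPM in the Mmp8 gate and 219.8 and 348 CPM in the Retnlg gate.

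The background of neutrophil transcripts in other cells was low for the scarcer genes and high for the abundant ones. Whether it came from free RNA or from droplets that held 2 cells was not tested. At least 1 *Orm1* UMI was found in 71.1% of the Col1a1fspKO and 72.8% of the WT Ltf-high cells, against 2.92% and 2.75% of the *Cd79a* cells (at least 3 *Cd79a* UMIs, a B cell marker), whose median depth was 4594 and 5722 UMIs. *Fcnb* was found in 55.7% and 62.6% of Ltf-high cells against 3.75% and 3.67% of *Cd79a* cells. *Mmp9* was found in 42.1% and 39.8% against 7.5% and 5.05%. *Ltf* was present in every Ltf-high cell by the rule, and 22.5% and 20.2% of *Cd79a* cells also had a UMI of it. The limit of 10 *Ltf* UMIs per 10000 was reached by 15 of 240 and 10 of 218 *Cd79a* cells. *Camp* had a UMI in 78.3% and 79.8% of *Cd79a* cells, *Ngp* in 72.1% and 72.9%, *Retnlg* in 67.9% of each library and *Lcn2* in 31.7% and 40.4%. The presence of a UMI therefore did not mark a cell for those genes, and *Camp* had a median of 3.50 and 2.82 UMIs per 10000 in *Cd79a* cells against 656 and 613 in Ltf-high cells. The limit of 10 *Ltf* UMIs per 10000 lay in a sparse region, with 5 and 2 cells from 5 to under 10 that met the other limits, and 9 and 5 cells from 10 to under 15. The *Mmp8* limit did not: 25 and 19 Ltf-high cells had 2 *Mmp8* UMIs, and 7 and 9 cells just outside had 3, with *Mmp9* at 422 and 354 CPM inside and 520 and 546 CPM outside.

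Transcripts of other cell types were present in a minority of the Ltf-high cells. Of them, 13 in Col1a1fspKO (5.53%) and 11 in WT (4.47%) carried at least 500 erythroid UMIs per 10000 or at least 20 UMIs per 10000 from the lists of B cells, monocytes and macrophages, T and natural killer cells, or eosinophils and basophils. These are the mixed cells, and their part in a result was not tested except where a value without them is given. The monocyte and macrophage list met its limit in 7 and 6 cells, with a summed level of 335 and 284 CPM over all Ltf-high cells. The erythroid list met its limit in 3 cells and 1 cell, with 28615 and 12257 CPM. The B cell list had 136 and 80.2 CPM and the T and natural killer list 215 and 175 CPM.

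Individual Ltf-high cells spread widely in *Ltf*, whose range the rule cut at 10, and in *Lcn2*. *Ltf* ran from 11.3 to 178 UMIs per 10000 with a median of 38.1 in Col1a1fspKO, and from 10.5 to 139 with a median of 43.4 in WT. *Lcn2* ran from 10.3 to 290 with a median of 110 in Col1a1fspKO, and from 28.8 to 267 with a median of 109.7 in WT. *Camp* had medians of 656 and 613 per 10000 and *Ngp* 464 and 478. The lowest cell had 103 and 209 *Camp* and 73.0 and 115 *Ngp* UMIs per 10000, so no Ltf-high cell lacked them. *Anxa1* had medians of 18.5 and 19.3 and *Orm1* 2.28 and 2.32 UMIs per 10000.

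The cell cycle split the Ltf-high cells. The summed UMIs of the S phase and G2/M gene lists per 10000 UMIs fell into a low and a high range, and a limit of 50 per 10000, set after the values were seen, was used to divide them. Cycle-high cells made up 91 of 235 Ltf-high cells in Col1a1fspKO (38.7%, exact Clopper-Pearson interval 32.5 to 45.3) and 117 of 246 in WT (47.6%, 41.2 to 54.0). Only 5 and 6 cells lay between 40 and 60 per 10000. The share differed by -8.84 percentage points (Newcombe interval -17.5 to 0.014), and by -9.69 points (-18.3 to -0.845) with 37.9% and 47.6% cycle-high after thinning each cell to 2500 UMIs. The *Cd79a* cells, outside the neutrophil gates, also had a lower share in Col1a1fspKO, 53.8% against 65.1%.

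Around the Ltf-high cells, the cycle-high share was 8 of 8 and 7 of 8 cells in the Fcnb gate and 14 of 20 and 16 of 24 cells in the Mpo gate for Col1a1fspKO and WT. In the Mmp8 gate it was 7 of 128 cells (5.47%) and 9 of 122 cells (7.38%), and in the Retnlg gate 3 of 178 and 1 of 89 cells. The Ltf-high cells were thus the last gate of the sequence with many cycle-high cells. Depth moved with this split, as the median was 8299 and 8474 UMIs in cycle-high Ltf-high cells and 4359 and 4630 UMIs in cycle-low ones.

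**Figure D2:**
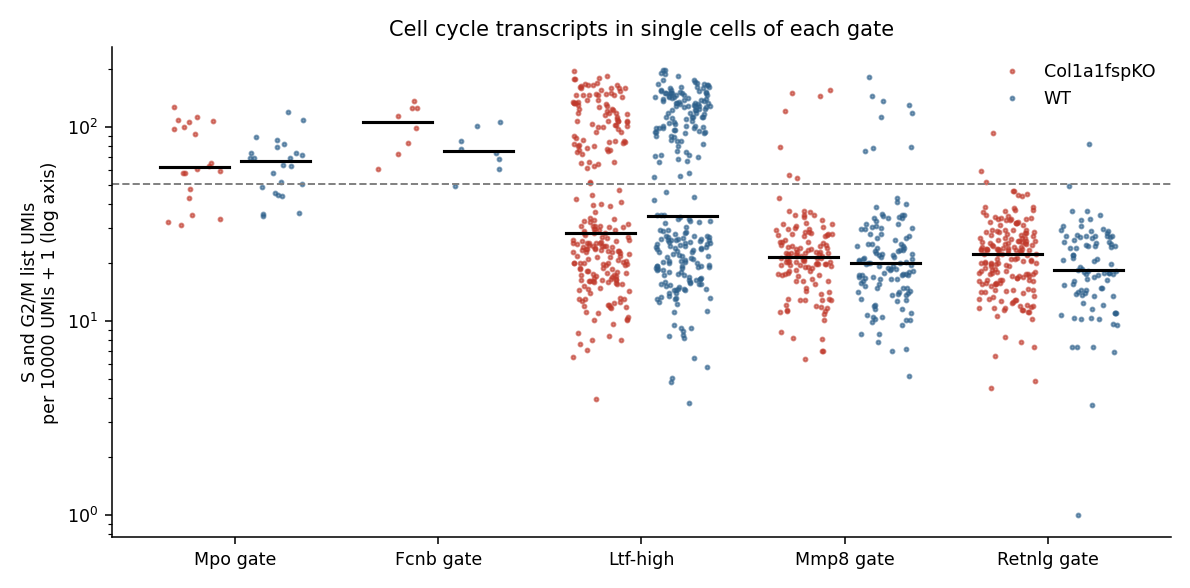
Cell cycle UMIs per 10000 UMIs plus 1 (log axis) in each cell of the 5 gates, for Col1a1fspKO and WT, with the limit of 50 as a dashed line and medians as black bars. The Ltf-high cells lie on both sides of the line, 91 of 235 and 117 of 246 at or above it, while 7 of 128 and 9 of 122 cells of the Mmp8 gate do.

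Cycle-low and cycle-high Ltf-high cells differed in granule genes that were not used for the split. *Mmp9* had 284 CPM in cycle-low and 24.8 CPM in cycle-high cells of Col1a1fspKO, and 271 and 34.0 CPM in WT, a ratio of 11.4 and 7.98. *Ly6g*, which encodes the neutrophil surface protein Ly6G, had 1353 and 453 CPM in Col1a1fspKO and 870 and 239.8 CPM in WT, a ratio of 2.98 and 3.63. Both genes were thus higher in the cycle-low cells of each library. *Fcnb* went the other way, with 206 and 462 CPM in Col1a1fspKO and 212 and 745 CPM in WT, a ratio of 0.446 and 0.284. *Elane* was at 1.53 CPM in cycle-low and 221 CPM in cycle-high Col1a1fspKO cells, and at 4.81 and 82.1 CPM in WT. These sums rest on few cells, as 12 of 91 and 25 of 117 cycle-high cells had an *Elane* UMI. In each library 1 cell held 61.4% (Col1a1fspKO) or 43.3% (WT) of the *Elane* UMIs of the Ltf-high cells.

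The secondary granule transcripts differed much less across the split. The ratio of cycle-low over cycle-high cells was 1.79 and 1.52 for *Ltf*, 1.62 and 1.34 for *Lcn2*, 1.73 and 1.47 for *Anxa1*, 1.20 and 1.05 for *Camp* and 1.10 and 0.966 for *Ngp*. *Cebpe* was close to equal at 0.989 and 0.909. The list of secondary granule genes, here and below, also covers secreted antimicrobial genes, so not every member is a granule content. Of its 20 genes with at least 50 UMIs, 2 were at least 2-fold higher in cycle-low cells of both libraries and 0 were lower. Over all genes, 73 of 3876 were higher (1.88%) and 540 lower (13.9%). The 2 higher genes of the list were *Slpi*, which encodes a secreted inhibitor of leukocyte proteases (2.35 and 2.12), and *Ceacam10*, a member of the carcinoembryonic antigen family (6.09 and 3.67).

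Of 8 tertiary granule genes, 4 were higher in cycle-low cells and 0 lower, with a median log2 ratio of 1.47 in Col1a1fspKO and 1.13 in WT. They were *Mmp8*, which the rule limited, *Mmp9*, *Fpr2*, which encodes a formyl peptide receptor (3.96 and 3.12), and *Adam8*, which encodes a metalloprotease and had 2 UMIs in the cycle-high Col1a1fspKO cells (18.3, 4.59 to 159, and 5.78). Of 18 early neutrophil genes, 13 were lower and 0 higher, and of 12 primary granule genes 6 were lower and 0 higher, *Prtn3* (proteinase 3) among them at 18.3 against 207 CPM and 6.42 against 150.1 CPM. Other genes higher in cycle-low cells, named after their values were seen, were *Scrg1* (7.79 and 8.26), *Thbs1* (thrombospondin 1, 6.50 and 10.8) and the interferon-stimulated *Slfn1* (4.69 and 5.21) and *Slfn4* (4.51 and 3.99). *Ifitm6*, of the interferon-induced transmembrane family, had ratios of 3.52 and 4.41.

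**Figure D3:**
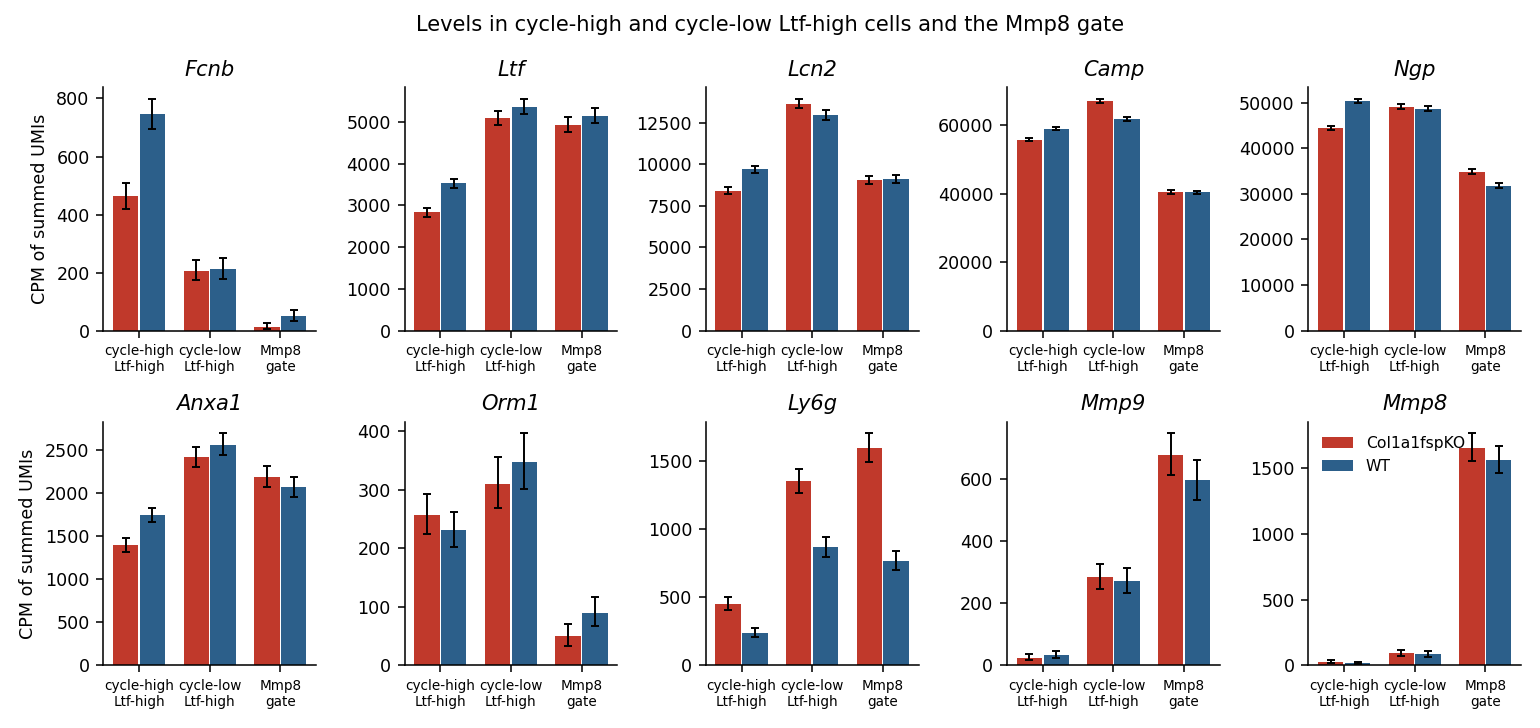
CPM of 10 genes in cycle-high Ltf-high cells, cycle-low Ltf-high cells and the Mmp8 gate for each library, with exact Poisson 95% intervals. *Fcnb* steps down and *Mmp9* and *Ly6g* step up from cycle-high to cycle-low cells in both libraries, while *Mmp8*, which the rule held low, appears in the Mmp8 gate.

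Cycle-low Ltf-high cells were also set beside the Mmp8 gate, to see which genes separated them once the cycle-high Ltf-high cells were left out. The Mmp8 gate kept its own cycle-high cells, 7 of 128 in Col1a1fspKO and 9 of 122 in WT. Of 3018 genes, 199 were at least 2-fold higher in the Mmp8 gate of both libraries (6.59%) and 13 were lower (0.431%). The lower side held *Fcnb*, at 13.6 against 206 CPM in Col1a1fspKO and 50.7 against 212 CPM in WT, and *Orm1*, at 49.4 against 310.0 CPM and 89.2 against 347 CPM. *Ms4a3* was 3.73-fold and 4.04-fold lower in the Mmp8 gate. *Pde4d*, which encodes a phosphodiesterase that breaks down cyclic AMP, was 3.97-fold and 2.95-fold lower, and *Ffar2*, which encodes a receptor for short-chain fatty acids, 3.40-fold and 2.81-fold lower. *Mgst2*, which encodes a microsomal glutathione transferase, had 104 against 231 CPM and 84.0 against 207 CPM. *Desi1*, *Lmo1*, *Mrpl41*, *Olr1*, *Prom1*, *Tmem216* and *Tnfsf13b* made up the rest of the 13, all named after their values were seen. The higher side included all 8 monocyte and macrophage genes measured, a list that also served to define the mixed cells. It also included 7 of 8 erythroid genes. Cell cycle genes were on this side too, 9 of 17 G2/M and 2 of 5 S phase genes, as cycle-high cells were left out of the other side only. Mixed cells were kept here, 18 of the 128 Col1a1fspKO and 23 of the 122 WT cells of the Mmp8 gate. Their part in the 199 genes was not tested, so the count does not describe neutrophils alone.

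The Ltf-high cells were also binned by their level of *Ltf*, a gene of the rule. Since *Ltf* was higher in cycle-low cells, these bins describe that difference again and give no independent support. From 10 to under 20 *Ltf* UMIs per 10000, 81.8% of 22 Col1a1fspKO cells and 92.3% of 13 WT cells were cycle-high. From 20 to under 40 the share was 54.9% of 102 and 75% of 96 cells, from 40 to under 60 it was 18.8% of 69 and 32.1% of 84 cells, and at 60 or more it was 9.52% of 42 and 11.3% of 53 cells. The cells richest in lactoferrin transcript thus seldom reached the limit of 50 cycle UMIs per 10000 in either library, although the lowest bin is thinly filled in WT.

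Across these 4 bins *Mmp9* stood at 36.3, 56.1, 233 and 395 CPM in Col1a1fspKO, and at 19.4, 43.9, 169 and 318 CPM in WT. *Ly6g* stood at 283, 676, 1207 and 1556 CPM in Col1a1fspKO, and at 96.9, 323, 565 and 951 CPM in WT. *Lcn2* stood at 5844, 10122, 12946 and 15271 CPM, and at 5631, 10055, 12397 and 13654 CPM. All 3 genes were thus higher in each bin with more *Ltf*, in both libraries. *Fcnb* ran against them, from 411 to 188 CPM between the outer bins in Col1a1fspKO and from 1208 to 194 CPM in WT. *Camp* and *Ngp* went with *Ltf* only weakly. Over the Ltf-high cells of Col1a1fspKO and WT, the Spearman correlation with *Ltf* was 0.074 and 0.056 for *Camp* and 0.026 and 0.016 for *Ngp*. *Orm1* had 159.9, 294, 328 and 309 CPM in Col1a1fspKO and 207, 231, 325 and 340 CPM in WT, higher in each bin in WT and in all but the last in Col1a1fspKO, where the intervals of the upper 2 bins overlapped.

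Binned by *Fcnb* instead, cells with 0, 1 to 2 and at least 3 *Fcnb* UMIs were cycle-high in 17.3%, 40.6% and 70.1% of cases in Col1a1fspKO (104, 64 and 67 cells) and in 15.2%, 42.4% and 82.1% in WT (92, 59 and 95 cells). *Mmp9* had 345, 90.8 and 21.7 CPM in these bins in Col1a1fspKO and 339.6, 85.4 and 26.3 CPM in WT. *Mmp9* was thus lowest where *Fcnb* was most abundant. UMI bins follow depth as well as level, and the deeper cycle-high cells have more chance of an *Fcnb* UMI. Within the limit on *Mmp8*, cells with 0, 1 and 2 *Mmp8* UMIs had *Mmp9* at 97.9, 144 and 422 CPM in Col1a1fspKO and 89.4, 219 and 354 CPM in WT.

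**Figure D4:**
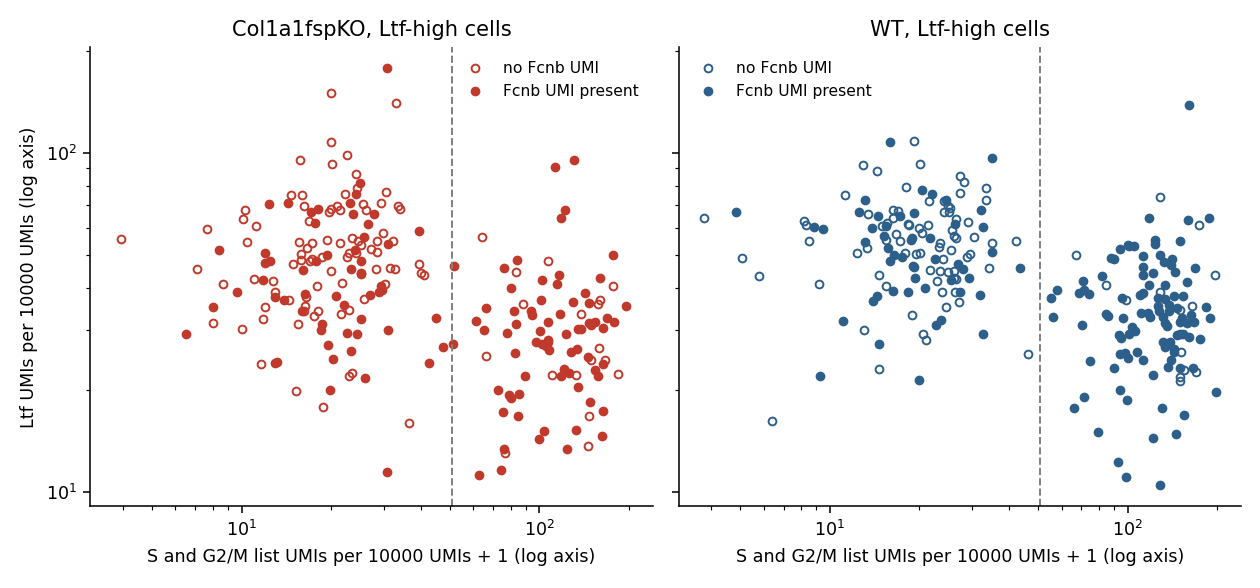
*Ltf* UMIs per 10000 (y axis) against cell cycle UMIs per 10000 plus 1 (x axis, both log axes) for each Ltf-high cell, 1 panel per library, with filled points for cells that have an *Fcnb* UMI and the limit of 50 as a dashed line. At 60 or more *Ltf* UMIs per 10000, 4 of 42 Col1a1fspKO cells and 6 of 53 WT cells reach the limit.

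Against the Mmp8 gate, the Ltf-high cells were set apart by early and cycle genes on the high side and by tertiary granule genes on the low side. The ratio of Ltf-high cells over the Mmp8 gate was 25.9 and 10.8 for *Fcnb*, 10.6 and 17.2 for *Ms4a3*, which encodes a membrane protein of granulocyte progenitors, and 5.66 and 3.06 for *Orm1*. *Cebpe* had 2.20 and 2.06 and *Chil3*, which encodes the chitinase-like protein Ym1, 2.16 and 2.04. *Mmp9* was 5.03-fold and 4.90-fold lower in the Ltf-high cells, and *Fpr1*, a receptor for bacterial formyl peptides, 8.54-fold and 14.1-fold lower. *Ltf* had 0.770 and 0.817, *Camp* 1.5 and 1.49 and *Ngp* 1.33 and 1.56.

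Over all 4699 genes with at least 50 UMIs, 220 were at least 2-fold higher in both libraries (4.68%) and 193 lower (4.11%). Of the lists, early neutrophil genes had 11 of 19 higher and 0 lower, and G2/M genes 25 of 39 higher and 0 lower. Tertiary granule genes had 5 of 10 lower and 0 higher, with median log2 ratios of -1.10 and -1.04. Secondary granule genes had 2 of 20 higher and 1 lower, with medians of -0.04 and -0.04, against -0.02 and -0.03 over all genes. *Slpi* was the lower one at 0.428 and 0.462. The late neutrophil list, which holds *Retnlg* used by the rule, had 11 of 19 lower and 0 higher. The 2 higher ones of the secondary granule and secreted antimicrobial list were *Orm1* and *Chil3*. Tertiary granule genes on the low side were *Mmp8*, which the rule used, *Mmp9*, *Fpr1*, *Adam8* (0.425 and 0.467) and *Cd55* (0.169 and 0.163). *Ccl5*, a chemokine on the list of T and natural killer cells, was among the 10 highest ratios with 162 and 77 UMIs in the Ltf-high cells against 5 and 1 in the Mmp8 gate, but had fewer than 50 UMIs over both gates once mixed cells were left out. Cell division genes such as *Cdc20* and *Bub1b* were also among the 10 highest.

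Mixed cells moved this comparison. The monocyte and macrophage list had 1229 and 1786 CPM in the Mmp8 gate and 16 and 20 of its cells at 20 or more per 10000. When mixed cells were left out of both gates, 222 and 235 Ltf-high and 110 and 99 Mmp8 gate cells remained. Of the 4141 genes then measured, 438 were higher and 100 lower. Of these, 180 and 80 were among the calls with all cells. Ratios were then 20.1 and 8.37 for *Fcnb*, 8.32 and 12.4 for *Ms4a3*, 4.63 and 2.34 for *Orm1*, 1.78 and 1.64 for *Cebpe* and 1.94 and 1.77 for *Chil3*. Neither *Cebpe* nor *Chil3* was then 2-fold higher, tertiary granule genes had 6 of 10 lower with medians of -1.22 and -1.29, and *Mmp9* was 5.46-fold and 6.07-fold lower.

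Against the Fcnb gate, which held only 8 cells in each library, the Ltf-high cells were low in primary granule genes. Of 14 such genes 10 were at least 2-fold lower in both libraries and 0 higher, against 422 lower (10.3%) and 136 higher (3.33%) of 4081 genes. The balance over all genes depended on the scaling, since without the 20 most abundant genes in the total 107 were lower and 385 higher, with 9 of 14 primary granule genes still lower and 0 higher. *Elane* was 55.7-fold and 209-fold lower and *Prtn3* 30.3-fold and 68.4-fold lower. Of 20 secondary granule genes 11 were higher and 0 lower, *Lcn2* at 6.47 and 8.44, *Cd177* at 5.37 and 11.5 and *Lyz2* (lysozyme) at 3.17 and 5.24 among them. The limit on *Ltf*, itself a secondary granule gene, separated these gates, and *Ltf* was 13.6-fold and 29.6-fold higher. That count therefore describes the gating and gives no independent support. The secretory pathway list, which covers folding and export of proteins through the endoplasmic reticulum, had 13 of 30 lower and 0 higher, or 6 lower without the 20 most abundant genes in the total. Its examples are the chaperones *Calr*, 2.83-fold and 10.8-fold lower, and *Hspa5*, 2.77-fold and 8.27-fold lower.

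Between genotypes, the Ltf-high cells made up 18.0% of all cells in Col1a1fspKO (exact Clopper-Pearson interval 15.9 to 20.1) and 21.0% in WT (18.7 to 23.5), a difference of -3.09 points (Newcombe interval -6.23 to 0.029). Of the 569 and 489 cells of the 5 granulocytic gates they made up 41.3% and 50.3%, a difference of -9.01 points (-14.9 to -2.99). The larger gap with this denominator went with the Retnlg gate, which had 178 cells in Col1a1fspKO and 89 in WT, 5.98 points more of all cells (3.57 to 8.39). The Mmp8 gate had 128 and 122 cells, of which 18 and 23 were mixed cells, so this denominator did not hold neutrophils alone.

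The 6 marker genes themselves differed little between the libraries. The ratio of Col1a1fspKO over WT in the Ltf-high cells was 0.901 for *Ltf* (exact binomial interval 0.870 to 0.933), 0.976 for *Lcn2* (0.956 to 0.997), 1.01 for *Camp*, 0.932 for *Ngp* (0.923 to 0.942), 1.02 for *Orm1* (0.895 to 1.17) and 0.894 for *Anxa1* (0.850 to 0.940). None of the 6 was past 1.5-fold in either direction, against 143 of 3876 genes higher (3.69%) and 195 lower (5.03%) in Col1a1fspKO. Intervals this narrow reflect large UMI sums, and the spread between mice was not measured. Of 20 secondary granule genes 0 were higher and 1 was lower, *Itgb2l*, which encodes an integrin chain (0.497, 0.402 to 0.612).

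The largest ratio belonged to *Ly6c1*, which encodes a Ly6C surface antigen. It had 765 UMIs in 205 of the 235 Col1a1fspKO Ltf-high cells and 14 UMIs in 13 of the 246 WT cells, or 496 and 8.32 CPM, a ratio of 59.6 (35.3 to 110). The gap was not particular to the Ltf-high cells by these values, since *Ly6c1* had 707 and 7.0 CPM in the Mmp8 gate, 755 and 15.3 CPM in the Retnlg gate and 4397 and 58 UMIs over all cells. *Ly6c2*, a near-identical copy, had 1360 and 1154 CPM (1.18, 1.11 to 1.25), and reads of the copies may have been split between them, so the *Ly6c1* value is uncertain. *Ly6g* had 835 and 473 CPM (1.77, 1.62 to 1.93) and was higher in Col1a1fspKO also in the Mmp8 gate (1600 and 768 CPM) and in the Retnlg gate (1775 and 757 CPM). *Ly6e* had 154 and 59.4 CPM (2.59, 2.04 to 3.30), or 164 and 51 UMIs without mixed cells, with 219.9 and 61.4 CPM in cycle-high and 64.1 and 56.2 CPM in cycle-low cells, and so was past 1.5-fold only among the cycle-high cells of the 2 states. Of the 4 Ly6 genes measured, 3 were past 1.5-fold higher and 0 lower.

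Of 6 class I antigen presentation genes measured, 3 were past 1.5-fold higher in Col1a1fspKO and 0 lower, or 2 and 0 without the 20 most abundant genes in the total, with a median log2 ratio of 0.55 against -0.05 over all genes. *H2-K1*, a class I heavy chain, had 149.8 and 72.5 CPM (2.07, 1.65 to 2.59), *H2-D1* 483 and 295 CPM (1.64, 1.46 to 1.84) and *B2m*, the light chain, 1341 and 874 CPM (1.53, 1.43 to 1.64). The same direction was found for *H2-K1* outside the Ltf-high cells, with 201 and 94.5 CPM in the Mmp8 gate and 612 and 434 CPM in *Cd79a* cells. *S100a6*, which encodes a calcium-binding protein, had 712 and 430.3 CPM (1.66, 1.51 to 1.82), and *S100a10* had a ratio of 2.12, the 2 of 8 S100 genes past 1.5-fold. *S100a8* and *S100a9*, the calprotectin subunits, had 185709 and 193246 CPM and 112305 and 123480 CPM.

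Genes of the earlier stage gave mixed directions, with 3 of 18 early neutrophil genes higher in Col1a1fspKO, *Mpo*, *Elane* and *Npm1* (1.55), and 1 lower, *Fcnb*. *Fcnb* had 354 and 547 CPM (0.646, 0.580 to 0.719) and *Chil3* 3439 and 4404 CPM (0.781, 0.754 to 0.809). Within cycle-high cells *Fcnb* had 462 and 745 CPM and *Chil3* 3615 and 5006 CPM, whereas within cycle-low cells the values were 206 and 212 CPM and 3199 and 3383 CPM. Of 24 S phase genes 4 were lower and 0 higher (median log2 ratio -0.24), or 1 of 21 lower without mixed cells, and of 38 G2/M genes 5 were lower and 0 higher (-0.19), which goes with the lower cycle-high share in Col1a1fspKO. *Hells* (0.578) and *Mcm2* (0.614), which act in DNA replication and chromatin, and *Kif11* (0.536), a spindle motor, were among them.

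Primary granule genes had 3 of 12 higher and 0 lower, or 1 higher and 1 lower by means over cells. *Elane* had 128 and 53.5 CPM (2.39, 1.85 to 3.10), but 61.4% of its Col1a1fspKO UMIs were in 1 cell, and 13 of 235 Col1a1fspKO cells had a UMI of it against 27 of 246 in WT. *Mpo* had 90 UMIs against 18 (5.46, 3.26 to 9.62), with 42.2% of the Col1a1fspKO UMIs in 1 cell and 11 against 14 cells with a UMI. *Srgn*, which encodes the granule proteoglycan serglycin, had a ratio of 2.18. The number of cells with *Elane* or *Mpo* was therefore smaller in Col1a1fspKO although the summed level was larger.

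On the low side, *Gdpd3*, which encodes a lysophospholipase, had 26 UMIs in Col1a1fspKO and 128 in WT (16.9 and 76.1 CPM), 4.51-fold lower (0.222, 0.14 to 0.340). It was lower also in the Mmp8 gate at 34.1 and 189 CPM, in the Retnlg gate at 68.4 and 348 CPM and in *Cd79a* cells at 10.7 and 49.3 CPM. *BC018473*, a long non-coding RNA gene, had 202 UMIs in 108 WT Ltf-high cells and was not listed for Col1a1fspKO, which with a floor of 3 UMIs for the group gives a level 61.7-fold lower and a counting interval that begins at 49.7-fold. It also had 29 UMIs in the WT Mmp8 gate and 37 in WT *Cd79a* cells, and 401 over all WT cells. All 106 *Cxcl12* UMIs of the WT Ltf-high cells were in 1 cell, which also had 3 *Lepr* UMIs beside 28 *Ltf* and 536 *Camp* UMIs, while the Col1a1fspKO cells had 0. The other low genes of the 10 were *Eif3j1* (0.273), *Gzma* (0.300, in 1 and 3 cells), *Gtf2f1* (0.381), *Card9* (0.409), *Serpinb6a* (0.422), *Olfml2b* (0.422) and *Cdc40* (0.431).

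Several of the highest ratios came from few cells. The haemoglobin genes *Hba-a2* (2.91) and *Hba-a1* (2.78), near-identical copies whose reads may be split, and *Bpgm* (2.75) belong to the erythroid list, of which 7 of 8 genes were higher, or 2 of 7 without mixed cells, and haemoglobin was 2.84% of the summed UMIs in Col1a1fspKO and 1.21% in WT, or 1.21% and 1.02% without mixed cells. *Vpreb3*, a gene of the B lineage, had 77 and 28 UMIs with 31.2% in 1 cell, and *Hmgn1* had 40 and 13 UMIs with 52.5% in 1 cell. *Rgp1* was spread over 36 Col1a1fspKO and 15 WT cells with 38 and 15 UMIs (2.77), and *Chchd10* (2.84) and *Tinagl1* (2.66) completed the 10 highest. Tertiary granule genes had 0 of 8 past 1.5-fold, NADPH oxidase genes 0 of 7, glycolysis genes 0 of 12 and transcription factors 1 of 22 higher, *E2f1* (1.58), and 1 lower, *Stat3* (0.567). Of 15 late neutrophil genes 2 were higher, *Wfdc17* (2.49) and *Stfa1* (1.78), or 0 of 13 without mixed cells, and of 6 interferon-stimulated genes 2 were higher, *Ly6e* and *Slfn4* (1.69). *Mmp9* had a ratio of 1.11 (0.909 to 1.35), an interval that includes equal levels.

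**Figure D5:**
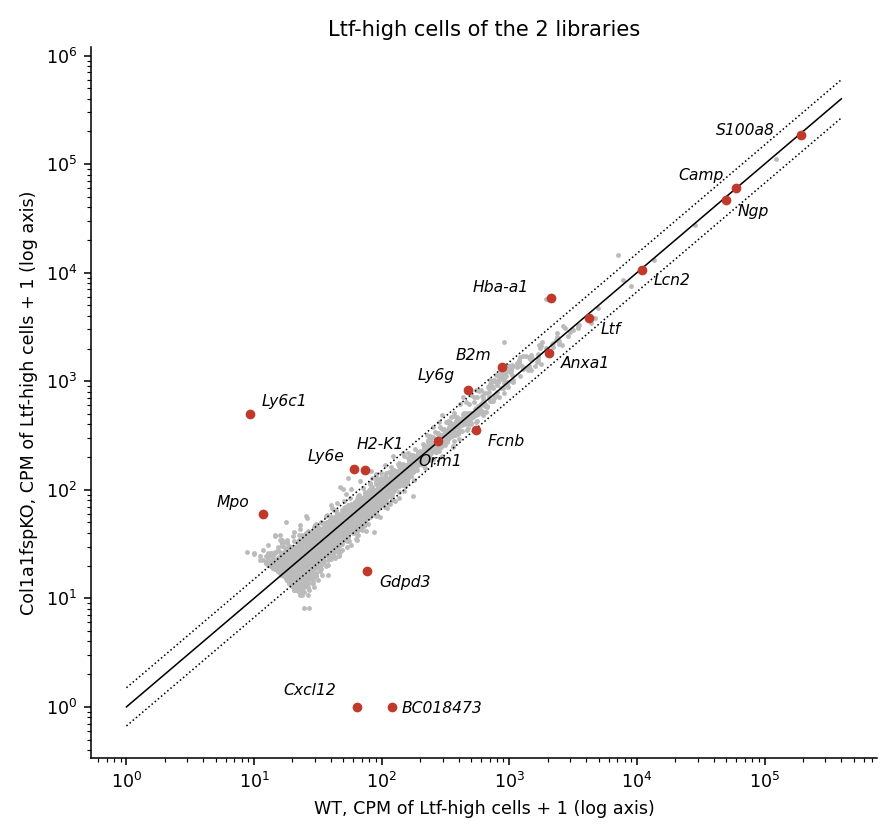
CPM plus 1 of each of 3876 genes in Ltf-high cells, WT on the x axis and Col1a1fspKO on the y axis (both log axes), with a solid line at equal levels, dotted lines at 1.5-fold and named genes in red. The 6 marker genes lie between the dotted lines, *Ly6c1* lies far above them, and *Gdpd3*, *Cxcl12* and *BC018473* lie below.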

How the data were processed

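Single cells of mouse bone marrow were measured in 1 Col1a1fspKO and 1 WT library. The authors deposited the raw UMI counts as 1 gene-by-cell matrix a library, not normalized. The submitters' processing notes name Cell Ranger, Seurat 3.5.3 and the mm10 build; the Cell Ranger version and the annotation are not given in the sources used here. All deposited cells were used, with doublets kept; removal by Scrublet, which marked 4 and 9 cells, was an alternative.

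The limits that define the Ltf-high cells, the gene lists and the comparisons were chosen with earlier results of these data known. Within each library the UMIs of a gate's cells were added up and expressed as CPM with exact Poisson 95% intervals. Ratios had exact binomial intervals, with a group at 0 set to 3 UMIs. Genes with at least 50 UMIs in the cells compared were kept. A gene counted as past the fold at 1.5-fold between libraries, or at 2-fold in both libraries between gates. Cells of 1 library are not replicates, so no test was run. Genes were named by membership of a fixed list, by abundance, or as 1 of the 10 highest and 10 lowest ratios, except where stated. The limit on cycle UMIs and that on mixed cells were set after the data were seen, as were the alternatives without mixed cells or within cycle-high or cycle-low cells.

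Promoter windows and gene positions came from RefSeq tables for GRCm38.p6. Motifs were searched on both strands. The alternatives were other gate limits, UMI minimums, thinning, means over cells, leaving out the 20 most abundant genes and using the granulocytic gates as denominator. Python 3.11.15, numpy 2.4.6, pandas 2.3.3, scipy 1.17.1, scanpy 1.11.5 and matplotlib 3.10.9 were used, and the ratio calculation was tested on simulated data.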

Additional observations from a re-analysis of the deposited data

How the results depend on the processing

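With the 5 granulocytic gates as denominator the share of Ltf-high cells was 41.3% in Col1a1fspKO and 50.3% in WT, a difference of -9.01 points. As a share of all cells that were not mixed, which also leaves out cells of other types, they made up 37.8% and 46.2%, a difference of -8.35 points. The count of genes past 1.5-fold followed the UMI minimum and the cells used. Higher in Col1a1fspKO were 89 of 3411 genes with an *Ltf* limit of 20, 62 of 1759 after thinning and 53 of 1652 in cycle-low cells. With a minimum of 20 UMIs 486 of 6254 were higher, with 200 it was 27 of 1285, and with none 2208 of 11488. Lower were 320 of 3876 genes by means over cells, 101 of 1759 after thinning and 83 of 1652 in cycle-low cells. With a minimum of 20 UMIs 581 of 6254 were lower, with 200 it was 15 of 1285, and with none 2118 of 11488. Thinning and smaller groups of cells leave fewer genes over the minimum.

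Against the Mmp8 gate, 115 genes were higher and 87 lower after thinning, and 438 and 100 of 4141 genes without mixed cells. Against the Fcnb gate, 385 were higher and 107 lower without the 20 most abundant genes in the total, and 36 higher after thinning. In cycle-low over cycle-high cells, 125 were higher without the 20 most abundant genes in the total and 35 after thinning, and 190 were lower after thinning.

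The log2 ratio of Col1a1fspKO over WT turned its sign for *Hmgn1* in cycle-low cells (-0.0714), for *Elane* in cycle-low cells (-1.66), and for *Gzma* without mixed cells (1.79) and in cycle-high cells (3.72). *Lcn2*, *Camp* and *Ngp* lay near equal levels and crossed 0. *Lcn2* had 0.0307 with an *Ltf* limit of 20, 0.0496 by means over cells, 0.0605 after thinning, 0.0238 without mixed cells and 0.0741 in cycle-low cells. *Camp* had -0.0258 without the 20 most abundant genes and -0.0787 in cycle-high cells, and *Ngp* had 0.0115 in cycle-low cells. Beyond the gene contents of each setting, the cause was not tested. No paired analysis was possible because each genotype had 1 library. Low genes rest on few UMIs, and depth limits any statement on them.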
